A study of Mus musculus with 12 samples.

Results

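The 10 genes described here, Cdh1, Spnb5, Lrtm2, Ddn, Egfl8, Fgf4, Lect1, Myh6, Nptx2 and Cdsn, were chosen by their measured level at 5 days, because their RNA was more abundant in dKO than in control sciatic nerve 5 days after transection, with the structural proteins of the myelin sheath left out. They are 10 of 38087 gene models in the deposited count table and 10 of the 22384 models that passed the filter on low counts. All 10 passed that filter, but a gene that passed only through its highest group had to differ between groups, so the number that passed is given as a description. The genes were proposed as genes of intact nerve that dKO nerve keeps. In control nerve 8 of them were lower after injury than in intact nerve, but how much of the intact level injured dKO nerve held differed widely, from 0.351% for Ddn to 114% for Egfl8. Nptx2 and Cdsn were near the bottom of the measured range in intact nerve and were most abundant in dKO nerve after injury.

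The study measured polyA RNA of whole mouse sciatic nerve in 4 groups of 3 libraries, each called a biological replicate by the submitters. Control mice were Dhh-Cre-:Tfebflox/flox;Tfe3+, which carry floxed Tfeb and no Cre. The dKO mice were Dhh-Cre+:Tfebflox/flox;Tfe3KO, which lack Tfe3 in the whole body and lose Tfeb where the Dhh promoter, active in the Schwann cell lineage, drives Cre. Intact nerve was the uncut nerve of the other side, collected together with the injured nerve and stripped of its epineurium, a step stated only for intact nerves. Injured nerve was the stump distal to the cut, taken after 5 days with about 1 mm next to the cut removed. The sources used here give no ages.

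In an intact nerve, myelinating Schwann cells wrap axons and express the genes of the myelin sheath and of the junctions that hold its layers together. When an axon is cut off from its cell body it degenerates, and the Schwann cells beyond the cut switch off much of this program and become repair cells that clear myelin debris and support regrowth. TFEB and TFE3 are related transcription factors best known for switching on lysosome and autophagy genes through a short DNA site that contains the E-box CACGTG. The 10 genes have no common function. They code for adhesion and membrane proteins (Cdh1, Lrtm2), a protein of the skeleton under cell membranes (Spnb5) and a cytoplasmic protein (Ddn). The others code for secreted proteins (Egfl8, Fgf4, Lect1, Nptx2), a muscle motor protein (Myh6) and an adhesion protein of the outer skin (Cdsn).

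Library totals ran from 15430999 to 35845371 counts, and levels are given in CPM, counts scaled to a common library size, after TMM scaling, which corrects for differences in RNA makeup. Of the 6 libraries at 5 days, 4 stood apart from the other 8 libraries by reads on olfactory receptor genes (174 to 380 such genes at equal depth, against 53.4 to 75.9): the 3 dKO libraries and control library 4, called the second library set below. Tfeb read 22.6 to 26.9 CPM in control and 17 to 19.5 CPM in dKO intact nerve, and 18.2 to 24 against 14.2 to 29.8 CPM at 5 days. Tfe3 read 56.7 to 62.1 against 43.3 to 47.4 CPM in intact nerve and 55 to 67.6 against 49.5 to 53.8 CPM at 5 days. Both were counted over the whole gene, and the deleted part is not given in the sources used here, so these values do not check the genotype. The Schwann cell markers summed to 41447 to 52900 CPM in control and 45037 to 51394 CPM in dKO intact nerve, and to 1909 to 2784 against 3091 to 3738 CPM at 5 days. Markers of fibroblasts were also higher in sum in every dKO than in every control library at 5 days (11048 to 12271 against 6489 to 9617 CPM; 1 of 7, Col1a1, called higher), as were those of endothelial cells (506 to 690 against 363 to 428 CPM; 0 of 6 called by edgeR, 3 at an unadjusted p under 0.05, 2 called by DESeq2 and 0 by limma-voom), and their part in the levels of the 10 genes was not tested. Between genotypes at 5 days, 27.1% of all tested models had an unadjusted p under 0.05 in edgeR. In bulk tissue, fewer cells of a type and less RNA per cell cannot be told apart.

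Promoters are shown because all 10 genes were higher in dKO nerve at 5 days and because TFEB and TFE3 read a known site. RefSeq (GRCm38.p6) held 9 promoters for 7 of the genes, each taken as the 250 bases before the RefSeq transcription start. These starts can differ from the gene positions given below, which came from another annotation, GENCODE M21. The promoter shown for Myh6 lies inside its GENCODE span, and that for Spnb5 lies apart from its span. Both strands were searched for CACGTG (the E-box), TCACGTG (the core of the CLEAR site of lysosome genes), TGANTCA (the AP-1 site), ACAAAG (the SOX core) and GCGTGGG (part of the EGR site). TCACGTG always holds CACGTG, so both motifs overlap. Of the 32851 promoters of the same length in the table, 6.02% held CACGTG, 3.13% TCACGTG, 6.75% TGANTCA, 16.5% ACAAAG and 4.3% GCGTGGG. Egfl8 held ACAAAG on the reverse strand, beginning 111 bases before its start (in capitals), and the other 8 promoters held none of the 5 motifs. A match is a description of letters, and its absence says nothing about binding elsewhere. The promoters of Egfl8, Spnb5 and Myh6 follow, 5′ to 3′ on the strand of the gene, and Spnb5 and Myh6 are shown for their wide differences at 5 days.
Egfl8 promoter, chr17:34615972-34616221, minus strand: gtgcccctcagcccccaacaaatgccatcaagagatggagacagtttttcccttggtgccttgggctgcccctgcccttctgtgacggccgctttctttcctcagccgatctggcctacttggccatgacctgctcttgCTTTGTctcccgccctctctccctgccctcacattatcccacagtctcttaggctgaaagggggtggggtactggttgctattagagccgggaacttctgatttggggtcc
Spnb5 promoter, chr2:120088914-120089163, minus strand: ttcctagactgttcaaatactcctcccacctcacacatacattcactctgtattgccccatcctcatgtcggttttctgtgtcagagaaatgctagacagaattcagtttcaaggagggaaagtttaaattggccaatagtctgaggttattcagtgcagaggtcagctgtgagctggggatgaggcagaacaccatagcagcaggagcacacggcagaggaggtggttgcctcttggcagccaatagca
Myh6 promoter, chr14:54966608-54966857, minus strand: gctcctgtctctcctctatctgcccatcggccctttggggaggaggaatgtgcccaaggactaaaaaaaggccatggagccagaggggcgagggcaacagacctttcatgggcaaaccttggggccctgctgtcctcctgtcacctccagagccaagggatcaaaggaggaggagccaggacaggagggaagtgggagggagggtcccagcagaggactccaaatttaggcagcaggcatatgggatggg

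At 5 days, the RNA of all 10 genes was higher in every dKO library than in every control library, by log2 2.51 (Egfl8) to 4.31 (Fgf4). This is the property by which the genes were chosen, so it is described and not tested. In the fit over all models, 3.12% were called higher in dKO nerve at 5 days (edgeR, adjusted p under 0.05), 8.97% were called lower, 12.1% in either direction, and 12.6% had every dKO library above every control library. The median difference was 2.96 over the 10 genes and -0.02 over all 22384 tested models. The levels by library are plotted for each gene.

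**Figure D1:**
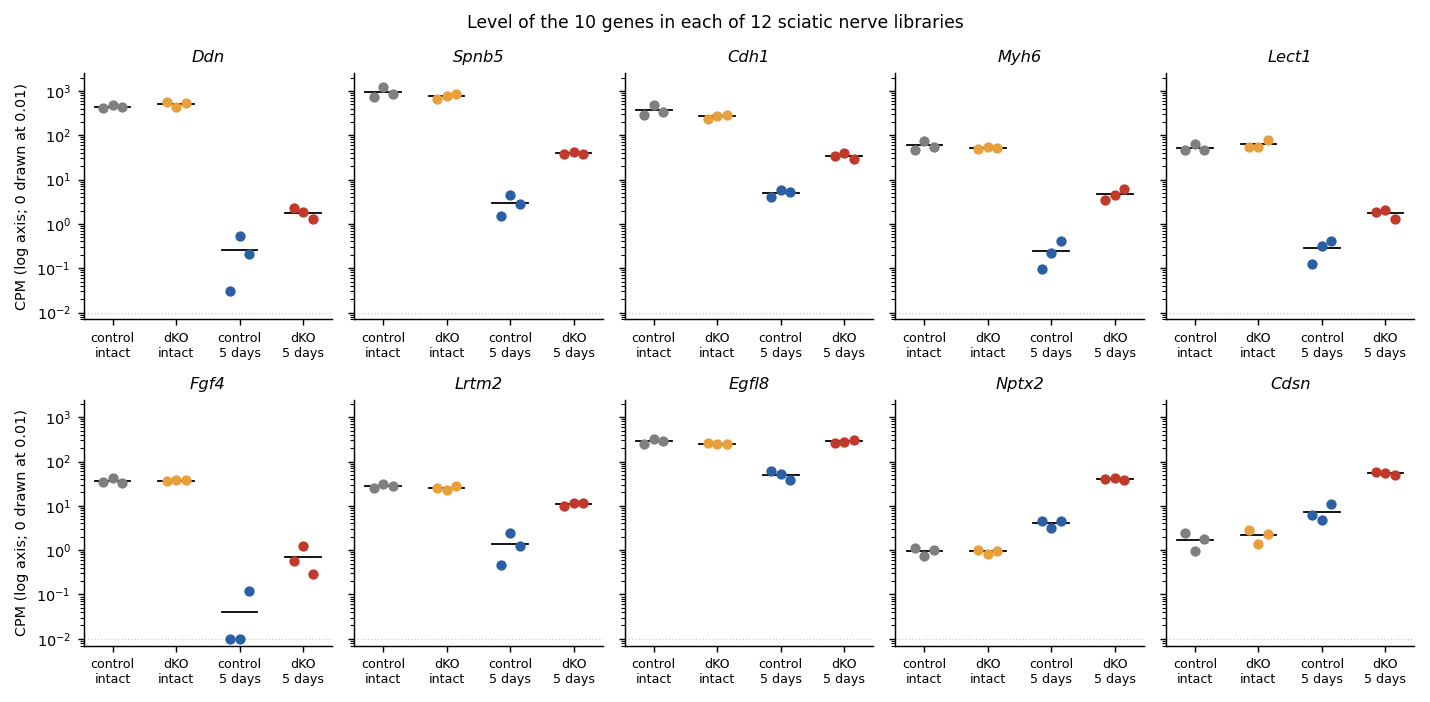
Level of each gene in CPM (log axis) in the 12 libraries; points are libraries, bars are group means, and a value of 0 is drawn at 0.01. For 8 genes both intact groups are highest or level with dKO at 5 days and control nerve at 5 days is lowest, while Nptx2 and Cdsn are lowest in intact nerve.

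Cdh1, which codes for E-cadherin, is known in nerve from the junctions that join successive turns of a single Schwann cell at the edges of the sheath. The gene lies at chr8:106603351-106670246 (plus strand, GRCm38). Control nerve had 287, 469 and 342 CPM of Cdh1 intact and 4.01, 5.82 and 5.18 CPM at 5 days. The dKO libraries had 238, 278 and 283 CPM intact and 33.9, 40 and 29.4 CPM at 5 days. All intact libraries were far above all injured ones, and at 5 days the lowest dKO library was well above the highest control library. The log2 change with injury was -6.19 (SE 0.22) in control and -2.95 (SE 0.19) in dKO nerve, and the difference between genotypes at 5 days was 2.79 (SE 0.20). Control nerve thus held 1.37% of its intact level and dKO nerve 12.9% of its own.

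Cadherins work together with catenins and other proteins of the adherens junction. Of 19 such genes tested, 8 were lower after injury in control nerve, among them Cdh3 (P-cadherin) at -4.02 (SE 0.32) and Ctnna1 (alpha-catenin) at -0.69 (SE 0.10), and 3 were higher, Cdh19, Pvrl2 and Pvrl4. At 5 days Cdh3 and Ctnnd2 were higher in dKO nerve, and Cdh2 (N-cadherin, -1.39, SE 0.22, edgeR adjusted p = 0.00135) and Cdh19 (-1.41, SE 0.19, edgeR adjusted p = 0.000313) were lower. The list had a median difference of 0.33 at 5 days. The call of Cdh3 (1.06) was lost without any of 7 single libraries, with 0.63 without dKO library 2 and 0.53 within the second library set, and that of Cdh2 with a term for the library set (-1.07).

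Spnb5, now named Sptbn5, codes for beta-V spectrin, a large protein of the spectrin skeleton under cell membranes. It lies at chr2:120041493-120085693 (minus strand) and is annotated there as a processed transcript. Control nerve had 739, 1225 and 866 CPM of Spnb5 intact and 1.53, 4.56 and 2.75 CPM at 5 days. The dKO nerve had 644, 753 and 856 CPM intact and 37.7, 41.6 and 37.5 CPM at 5 days. The 3 dKO libraries at 5 days lay close together, and the control libraries, all far below them, differed more among themselves. The fitted change with injury was -8.32 (SE 0.39) in control and -4.27 (SE 0.32) in dKO nerve, and the 5-day difference was 3.72 (SE 0.33).

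Part of the gene, 792 exonic bases or 6.79% of its exons, is shared with Pla2g4b, a phospholipase gene on the opposite strand. Since the sources used here do not state whether counting used strand, reads of the shared part cannot be assigned to either gene. Summed over 3 libraries, Spnb5 had 74490 counts to 29044 for Pla2g4b in intact control nerve and 261 to 1499 in control nerve at 5 days, so Spnb5 had the larger count in one state and the smaller in the other. In dKO nerve at 5 days the counts were 3395 and 3978. Pla2g4b was itself higher in dKO nerve at 5 days, by 1.46 (SE 0.16, edgeR adjusted p = 4.22e-05).

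Of 16 other spectrin, ankyrin and adaptor genes tested, 8 were lower after injury in control nerve, among them Spnb1 (beta-I spectrin, -5.33, SE 0.23) and Epb4.1l2 (a protein 4.1, -2.15, SE 0.13), and 3 were higher, Spna1, Epb4.1l1 and Add2. Spnb1 was abundant in intact nerve (798 CPM, SD 241, intact and 19.9 CPM, SD 4.23, injured in control nerve, n = 3) and at 5 days did not pass the test between genotypes (0.29, SE 0.20, edgeR adjusted p = 0.362). Epb4.1l2 was called higher in dKO nerve at 5 days, and Epb4.1l1 and Add1 lower. The call of Epb4.1l2 (0.40) was lost without any of 10 single libraries.

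Lrtm2 codes for a membrane protein with leucine-rich repeats. It lies at chr6:119315133-119330766 (minus strand), wholly inside Cacna2d4, a calcium channel subunit gene on the other strand, with no shared exonic base. Control nerve had 25.2, 31.8 and 27.4 CPM of Lrtm2 intact and 0.47, 2.42 and 1.23 CPM at 5 days. In dKO nerve Lrtm2 read 25.8, 23.1 and 27.9 CPM intact and 9.82, 11.8 and 11.3 CPM at 5 days. Control libraries at 5 days differed widely among themselves, yet all lay below the dKO libraries, which kept 42.9% of their intact mean against 4.88% in control. The injury change was -4.35 (SE 0.38) in control and -1.22 (SE 0.32) in dKO nerve, and the 5-day difference was 2.99 (SE 0.37). With a term for the library set, the injury change in dKO nerve was -0.99 and missed the threshold.

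The counts of Lrtm2 and Cacna2d4 were nearly the same in every intact library: Lrtm2 had 92.1% to 94.7% of the counts of Cacna2d4, a shortfall of 44 to 65 reads. At 5 days Lrtm2 had 40.5% to 55.4% of the Cacna2d4 counts in control and 75.9% to 83.7% in dKO nerve. Across the 12 libraries the log2 CPM of both had a Pearson r of 0.999, over libraries that share depth and scaling. Whether reads of one model were counted for the other was not tested, since the counting is not stated. Cacna2d4 was called higher in dKO nerve at 5 days by 2.29 (SE 0.32, edgeR adjusted p = 0.00048). Of 16 other leucine-rich repeat membrane proteins tested, 8 were lower after injury in control nerve, among them Lrrc4 (a synaptic adhesion protein, -1.47, SE 0.14), and 4 were higher: Lrrtm2, Slitrk6 (4.87, SE 0.44), Lingo1 and Lingo3. The 4 called at 5 days, Slitrk1, Slitrk6, Lingo1 and Lingo3, were lower in dKO nerve, Lingo3 by -3.17 (edgeR adjusted p = 0.001). Within the second library set the values, -2.79 for Lingo3 and -1.15 for Slitrk6 in place of -1.34, missed the threshold. The call of Slitrk6 was also lost without any of 4 single libraries and with the replicate block (-1.49).

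**Figure D2:**
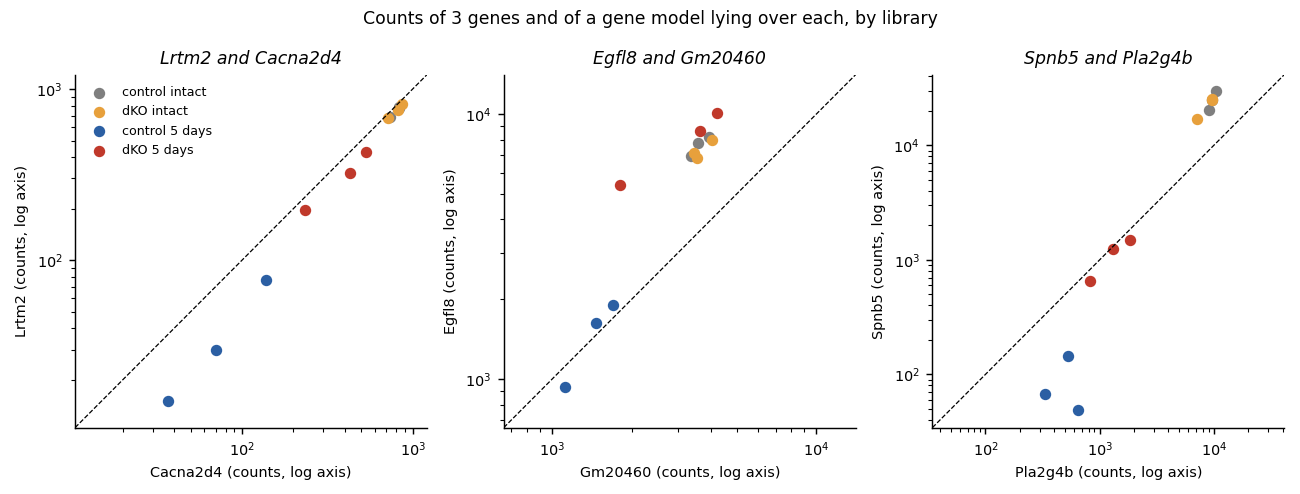
Counts of Lrtm2, Egfl8 and Spnb5 (vertical, log axis) against those of a gene model that lies over each (horizontal, log axis), 1 point per library, with a dashed line of equal counts. Lrtm2 lies close to the line in intact nerve, and Spnb5 is above the line in intact nerve and below it after injury.

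Ddn codes for dendrin, a cytoplasmic protein known from dendrites of neurons and from the filtration junction of kidney podocytes. It lies at chr15:98803777-98809490 (minus strand) and shares 177 exonic bases (4.68%) with an antisense model not counted under that name in the table. Control nerve had 415, 477 and 429 CPM of Ddn intact and 0.0313, 0.535 and 0.205 CPM at 5 days. Ddn read in dKO nerve 575, 428 and 525 CPM intact and 2.24, 1.86 and 1.27 CPM at 5 days. Injured nerve held 0.0584% of the intact mean in control and 0.351% in dKO nerve. At 5 days 23 reads in all fell on Ddn in control nerve and 163 in dKO nerve, a ratio of counts scaled to depth of 7.22 (95% exact counting interval 4.65 to 11.7, which covers counting error only). The injury change was -10.70 (SE 0.42) in control and -8.11 (SE 0.36) in dKO nerve, and the 5-day difference was 2.80 (SE 0.45), or 4.04 without control library 2.

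Dendrin works at the podocyte junction together with nephrin and its partners. Of 11 such genes tested, 3 were higher after injury in control nerve, Nphs1 (nephrin, 1.30, SE 0.12), Synpo (synaptopodin, 1.57, SE 0.18) and Kirrel3, and 4 were lower, Kirrel, Cd2ap, Magi1 and Trpc6. Only Trpc6 was called at 5 days, higher in dKO nerve. The podocyte markers summed to 158 to 237 CPM in intact nerve and 225 to 243 CPM at 5 days.

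Egfl8 codes for a secreted protein with EGF-like domains. It lies at chr17:34613349-34615971 (minus strand), 13.1 Mb from Tfeb on the same chromosome. Control nerve had 254, 322 and 287 CPM of Egfl8 intact and 59.5, 51 and 38.5 CPM at 5 days. The dKO nerve had 261, 243 and 242 CPM intact and 259, 279 and 311 CPM at 5 days. Injured dKO nerve was thus level with intact nerve, and injured control nerve stood apart below all other libraries. Egfl8 was the single gene of the 10 that the fit did not call changed by injury in dKO nerve (0.19, SE 0.14), against -2.53 (SE 0.15) in control nerve. With upper-quartile scaling this change was 0.33 and with a term for the library set 0.71, and both passed the threshold. The 5-day difference of 2.51 (SE 0.15) was 2.88 (SE 0.19) within the second library set.

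A same-strand model, Gm20460, shares 615 exonic bases or 34.9% of the exons of Egfl8, and Agpat1 on the opposite strand shares 101 bases (5.74%). Egfl8 had 208% to 219% of the reads of Gm20460 in intact control nerve, 193% to 207% in intact dKO nerve and 236% to 299% in injured dKO nerve, but 83.4% to 112% in injured control nerve. Gm20460 was called higher in dKO nerve at 5 days by 1.18 (SE 0.10, edgeR adjusted p = 7.38e-06) and Agpat1, an enzyme of phospholipid synthesis, by 0.50 (SE 0.10, edgeR adjusted p = 0.00468). Of 10 EGF-like genes and neighbours of Egfl8 tested, Agpat1, Rnf5 and Prrt1 were lower after injury in control nerve and Pbx2 was higher, and Agpat1, Ager and Prrt1 were higher in dKO nerve at 5 days.

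Fgf4 codes for a secreted fibroblast growth factor best known from the early embryo and the limb bud. It lies at chr7:144847367-144865243 (plus strand). Control nerve had 35.2, 42.2 and 33.1 CPM of Fgf4 intact and 0, 0 and 0.123 CPM at 5 days. For Fgf4 the dKO libraries had 35.4, 37.3 and 38 CPM intact and 0.574, 1.25 and 0.289 CPM at 5 days. All 3 reads in injured control nerve came from library 4. For the count of 0 in libraries 1 and 2, the level of 3 counts was taken as an approximate upper bound. It was 0.0939 CPM in library 1 and 0.0943 CPM in library 2. The 69 reads of injured dKO nerve gave a depth-scaled ratio of 23.4, with a 95% exact counting interval of 7.69 to 116. The fitted injury change was -9.89 (SE 0.56) in control and -5.59 (SE 0.39) in dKO nerve, and the fitted 5-day difference was 4.31 (SE 0.75). Without control library 4 the latter was 7.47, a value set against 0 reads that gives no bound, and within the second library set it was 2.59 and missed the threshold.

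Of the 15 other FGF ligands tested, 6 were lower after injury in control nerve, among them Fgf1 (-4.31, SE 0.23), an FGF of many adult tissues, and Fgf5 (6.96, SE 0.50) and Fgf14 were higher. Fgf1 stood at 636 CPM in intact control nerve and, at 5 days, at 32.2 CPM in control against 91.5 CPM in dKO libraries, a difference of 1.51 (SE 0.21, edgeR adjusted p = 0.000418). Fgf5, barely detected in intact nerve, was called lower in dKO nerve at 5 days (-1.17), a call that was lost without any of 7 single libraries and was -0.54 within the second library set. Fgf3, which adjoins Fgf4 at a distance of 2930 bases, read 15.7 CPM in intact control nerve and at 5 days 0.566 CPM in control against 0.52 CPM in dKO libraries (log2 difference -0.03, SE 0.42, edgeR adjusted p = 0.971). Of the 5 FGF receptors, none was called at 5 days by edgeR, and DESeq2 and limma-voom each called 1. In edgeR 2 of the 5 had an unadjusted p under 0.05, as did 27.1% of all models.

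Lect1, now named Cnmd, codes for chondromodulin, a cartilage glycoprotein that inhibits the growth of vessels. It lies at chr14:79637690-79662170 (minus strand). Control nerve had 47.3, 63.3 and 45.6 CPM of Lect1 intact and 0.125, 0.314 and 0.411 CPM at 5 days. The dKO nerve had 55.5, 54.6 and 77.8 CPM intact and 1.9, 2.03 and 1.27 CPM at 5 days. Groups at 5 days did not overlap, and both were far below the intact libraries, at 0.544% of the intact mean in control and 2.77% in dKO nerve. The injury change was -7.55 (SE 0.31) in control and -5.13 (SE 0.26) in dKO nerve, and the 5-day difference was 2.68 (SE 0.34). Of 6 other genes with a BRICHOS domain, the fold that Lect1 carries, Itm2a was lower (-1.06, SE 0.15) and Bricd5 higher (0.71, SE 0.20) after injury in control nerve. Without control library 2, intact or injured, the call of Bricd5 was lost (0.59 and 0.55). At 5 days edgeR, DESeq2 and limma-voom called 0 of the 6. In edgeR 2 of the 6 had an unadjusted p under 0.05, as did 27.1% of all models. Markers of cartilage and tendon, a list without Lect1, were not at 0: they summed to 113 to 131 CPM in control and 207 to 213 CPM in dKO nerve at 5 days, with Col2a1 (0.83, edgeR adjusted p = 0.00265) and Sox9 called higher among 7 tested, and their part in the result was not tested.

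Myh6 codes for the alpha heavy chain of cardiac myosin. It lies at chr14:54941921-54966927 (minus strand). Control nerve had 46.2, 75.9 and 55.4 CPM of Myh6 intact and 0.0939, 0.22 and 0.411 CPM at 5 days. In the dKO libraries Myh6 read 47.9, 53.3 and 52.6 CPM intact and 3.38, 4.5 and 6.07 CPM at 5 days. Injured dKO nerve kept 9.07% of its intact level and injured control nerve 0.408%, with no overlap. The injury change was -7.98 (SE 0.36) in control and -3.48 (SE 0.26) in dKO nerve, and the 5-day difference was 4.29 (SE 0.37). Mir208a, a microRNA hairpin model inside Myh6, had 179 and 143 counts over the control and dKO intact libraries and 0 in all 6 injured libraries.

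Muscle transcripts differed between libraries. The skeletal muscle markers summed to 62.9 CPM in dKO library 4 at 5 days and to 14.8 and 19.2 CPM in the other 2, against 13.7 to 15.7 CPM in control. The heart muscle markers, a list without Myh6, summed to 22.8 to 41.8 CPM in dKO and 9.14 to 19.1 CPM in control nerve at 5 days, and to 12.9 to 16.6 CPM in intact nerve, where Myh6 was most abundant; their part in the result was not tested. Without dKO library 4 the 5-day difference of Myh6 was 4.07. Of 26 other sarcomere and cardiac genes tested, Myh14 was lower after injury in control nerve (-4.40, SE 0.14) and Myh3, Mybpc3 and Nppb were higher. At 5 days 5 were called higher in dKO nerve: Myh14, a non-muscle myosin (1.04, SE 0.12, edgeR adjusted p = 8.28e-05), Myh7, Myh8, Tnnt2 and Ryr2. The dKO libraries at 5 days varied widely for Tnnt2 (mean 7.26 CPM, SD 11, edgeR adjusted p = 0.0499). They also did for Myh8 (mean 1.59 CPM, SD 1.53, edgeR adjusted p = 0.0367). How far the calls of Tnnt2 and Myh8 rest on a single library is not given here. Myh7, the neighbour of Myh6, differed by 4.70 with all libraries, and without dKO library 4 by 1.73, no longer past the threshold.

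Nptx2 codes for neuronal pentraxin 2, a secreted protein that gathers glutamate receptors at synapses and is induced by neuronal activity. It lies at chr5:144545902-144557478 (plus strand). Control nerve had 1.13, 0.744 and 0.984 CPM of Nptx2 intact and 4.66, 3.21 and 4.52 CPM at 5 days. The dKO nerve had 1.03, 0.823 and 0.95 CPM intact and 40.9, 42.8 and 38.9 CPM at 5 days. The 3 dKO libraries at 5 days lay close together and far above control, and the low intact values of both genotypes overlapped. With injury the fitted change was 2.10 (SE 0.21) in control and 5.45 (SE 0.22) in dKO nerve, and the 5-day difference was 3.31 (SE 0.20), so that Nptx2 was gained with injury in both genotypes and more in dKO.

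Nptx2 has a close relative in this list that was called in the other direction. Nptx1, neuronal pentraxin 1, averaged 3.94 CPM in control against 0.439 CPM in dKO libraries at 5 days (-3.06, edgeR adjusted p = 0.0107), and was higher after injury in control nerve. Within the second library set the value was -2.64 and missed the threshold, as did the value without dKO library 3 (-3.07). Of the 4 other pentraxins tested, Nptx1, Ptx3 (3.84, SE 0.41) and Crp were higher after injury in control nerve and the receptor Nptxr was lower (-0.92, SE 0.10); Nptx1 was the 1 called at 5 days. The 8 neuron markers summed to 178 to 291 CPM in control and 140 to 187 CPM in dKO nerve at 5 days, a sum made up mostly of Tubb3 (211 against 120 CPM, -0.82, SE 0.24, edgeR adjusted p = 0.0466). The median difference of the 8 was 0.62, and Tubb3 was the 1 called; their part in the result was not tested.

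Cdsn codes for corneodesmosin, an adhesion protein of the outermost skin layer. It lies at chr17:35552128-35557180 (plus strand), 12.2 Mb from Tfeb. Control nerve had 2.45, 0.951 and 1.76 CPM of Cdsn intact and 6.26, 4.75 and 11 CPM at 5 days. Cdsn in dKO nerve read 2.87, 1.4 and 2.34 CPM intact and 59.4, 56.4 and 50.8 CPM at 5 days. Control library 4, of the second library set, was the highest of the control libraries, and the lowest dKO library was still far above it. The change from intact to injured was 2.08 (SE 0.37) in control and 4.66 (SE 0.38) in dKO nerve, and the 5-day difference was 2.92 (SE 0.35), or 2.33 (SE 0.43) within the second library set. Keratinocyte markers summed to 6.76 to 9.51 CPM in dKO and 4.5 to 9.12 CPM in control nerve at 5 days, and those of epithelium to 5.19 to 5.32 against 2.3 to 6.61 CPM. Of 15 desmosome and cornified layer genes tested, Ppl (periplakin, -2.20, SE 0.42) and Evpl (envoplakin, -1.40, SE 0.36) were lower and Pkp3 higher after injury in control nerve. None of the 15 was called at 5 days by edgeR, and DESeq2 and limma-voom each called 1. In edgeR 2 of the 15 had an unadjusted p under 0.05, against 27.1% of all models.

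Before injury the 10 genes did not pass the test between genotypes, and this is the only comparison that did not enter their choice. In the intact nerve 0 of 10 were called by edgeR or limma-voom, and DESeq2 called 0 of the genes for which it gave an adjusted p (all but Nptx2, Lrtm2 and Cdsn). With edgeR 1 of the 10 had an unadjusted p under 0.05, as did 5.8% of all tested models. By adjusted p, 0.00447% of all tested models (1 of 22384) were called in either direction. The log2 differences ran from -0.46 (Cdh1) to 0.34 (Cdsn), with a median of -0.09 over the 10 and -0.01 over all models. Cdh1 was lower in each dKO than in each control library (-0.46, SE 0.17, edgeR adjusted p = 0.85, 95% interval -0.83 to -0.08). It was the 1 gene of the 10 whose intact groups did not overlap, and 14.6% of all models showed no overlap in either direction.

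The intervals show how large a difference in intact nerve the fit leaves possible, with the spread estimated over all 12 libraries, injured ones included. For Egfl8 the 95% interval of the ratio of dKO to control in intact nerve was 0.699 to 1.07, for Nptx2 0.69 to 1.37 and for Ddn 0.791 to 1.69. That of Cdsn was 0.714 to 2.24, that of Fgf4 0.645 to 1.56 and that of Lrtm2 0.565 to 1.46. Spnb5 had an interval of 0.523 to 1.21, Myh6 of 0.617 to 1.22 and Lect1 of 0.889 to 1.63.

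For 9 of the 10 genes the change with injury had the same sign in both genotypes, and for Egfl8 it did not. In control nerve the fit called 8 of 10 lower and 2 higher, where 46.8% of all models were called (22.4% lower and 24.4% higher). In dKO nerve it called 7 lower and 2 higher, where 44.7% of all models were called (22.6% lower and 22% higher). Both comparisons share their injured libraries with the choice of the genes, so nothing is read from these counts. The median injury change was -6.87 in control and -3.22 in dKO nerve. The difference of both changes was called for 10 of 10, all toward dKO, from 2.41 (Lect1) to 4.50 (Myh6), where 2.9% of all models were called (0.737% higher and 2.17% lower); it holds the comparison used for the choice. With a term for the library set, the difference was called for 5 of the 10. Calls over all models changed as well, from 172 to 1075 between alternatives that kept every library or the second set (650 in the fit described). The share of all models called with that term is not given here, so nothing is read from the 5.

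**Figure D3:**
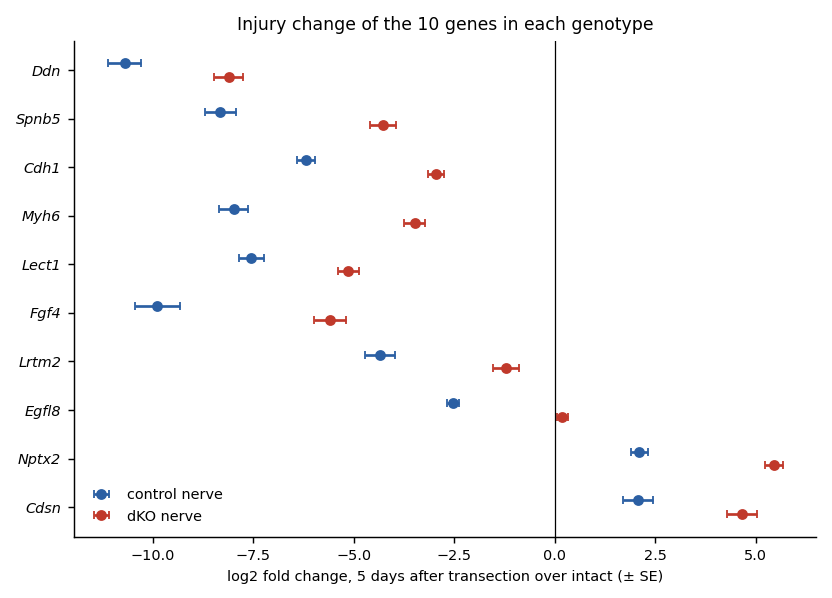
Log2 fold change of each gene from intact nerve to 5 days after transection (horizontal, ± SE) in control nerve (blue) and dKO nerve (red), 3 libraries per group. The dKO value lies to the right of the control value for all 10 genes, and only Egfl8 in dKO nerve lies near 0.

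The 8 genes that were lower after injury in control nerve differed widely in how much RNA was left. In control nerve the share of the intact level ran from 0.0584% (Ddn) to 17.2% (Egfl8), with a median of 0.476%, and in dKO nerve from 0.351% (Ddn) to 114% (Egfl8), with a median of 7.13%. Both genotypes had the same order of genes except for Lect1, which stood above Spnb5 and Myh6 in control and below them in dKO nerve. For comparison, the 21 myelin protein genes that were lower after injury in control nerve kept a median of 2.43% in control and 6.93% in dKO nerve, and 14 of them were called higher and 1 lower in dKO nerve at 5 days, with a median difference of 1.12. Among them were Prx (periaxin, 2.89, SE 0.12, edgeR adjusted p = 1.27e-08) and Cldn19 (a claudin of Schwann cell tight junctions, 2.27, SE 0.12). The 8 genes were picked for a high difference and the myelin genes were not, so their medians cannot be set against each other as a test. Of 12 transcription factors of myelination tested, Egr2, a driver of the myelin program, was higher in dKO nerve at 5 days (1.56, SE 0.21, edgeR adjusted p = 0.000319), and Sox10, Pou3f1 and Tead4 were lower. Srebf2, which controls cholesterol synthesis, was -2.57 (SE 0.15) after injury in control nerve and did not pass at 5 days (0.30, edgeR adjusted p = 0.182). Repair cell markers summed to 2682 to 3702 CPM in control and 1515 to 1848 CPM in dKO nerve at 5 days, with 5 of 10 called lower in dKO, Olig1, Gdnf, Ngfr, Runx2 and Clcf1; their part in the levels of the 10 genes was not tested.

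**Figure D4:**
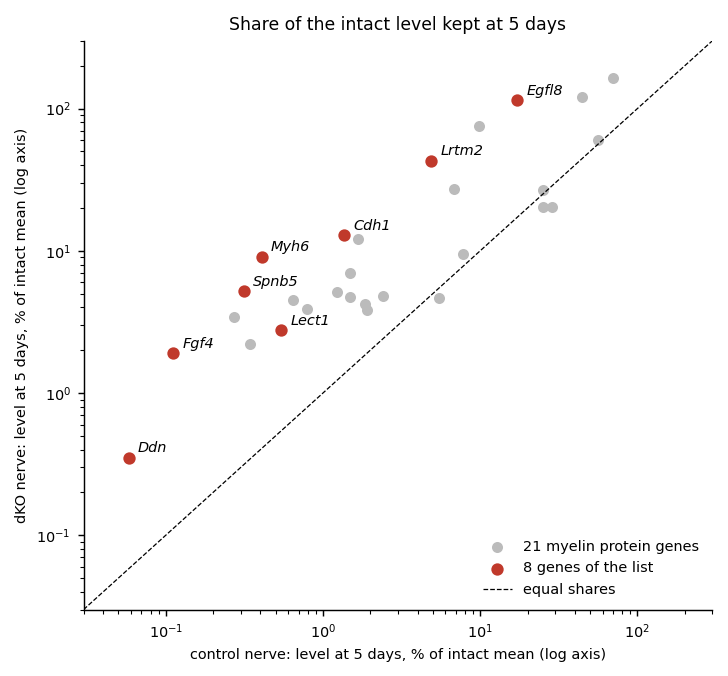
Level at 5 days as a percent of the intact mean, in control nerve (horizontal, log axis) and dKO nerve (vertical, log axis), for 8 of the genes (red) and 21 myelin protein genes (grey); the dashed line marks equal shares. All 8 red points lie above the line, as do most grey points.

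Per kilobase of exon, which allows levels to be compared between genes, intact control nerve held most RNA of Egfl8 (mean 164 CPM per kb), then Ddn (116), Spnb5 (80.9) and Cdh1 (80), followed by Lect1 (28.3), Fgf4 (11.5), Myh6 (8.8) and Lrtm2 (6.86), and least of Cdsn (0.642) and Nptx2 (0.376). Spnb5 and Cdh1 overlapped between libraries, as did Fgf4 with Myh6, Myh6 with Lrtm2, and Cdsn with Nptx2. In that group Egfl8 was at percentile 98.7 and Nptx2 at percentile 16.7 of 20826 models with a length. In dKO nerve at 5 days the order was Egfl8 (161), Cdsn (20.7), Nptx2 (16.1), Cdh1 (7.53), Spnb5 (3.34), Lrtm2 (2.67), Lect1 (0.941), Myh6 (0.691), Ddn (0.473) and Fgf4 (0.22). Neighbours in this order were apart between libraries from Egfl8 down to Lect1, and Lect1 overlapped with Myh6, Myh6 with Ddn, and Ddn with Fgf4. Ddn thus went from percentile 98 in intact control nerve to percentile 15 in injured dKO and percentile 2.68 in injured control nerve.

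The difference at 5 days was recomputed for each gene within the second library set, which holds the 3 dKO libraries and control library 4 alone. All 10 genes were higher in dKO nerve there, by 2.11 (Lect1) to 3.82 (Spnb5), with 1 control library that is assumed to vary like the others. Differences with all libraries were larger than these for Myh6 (4.29 against 3.46), Fgf4 (4.31 against 2.59), Cdsn (2.92 against 2.33) and Lect1 (2.68 against 2.11), and smaller for Egfl8 (2.51 against 2.88) and Ddn (2.80 against 3.14). Leaving out 1 library at a time, the values ranged from 2.23 to 4.04 for Ddn, from 2.55 to 3.72 for Lrtm2 and from 3.88 to 4.82 for Myh6. For Ddn, Lrtm2 and Spnb5 the lowest value came without control library 1 and the highest without control library 2. Nptx2 (3.15 to 3.40), Cdh1 (2.64 to 2.91) and Egfl8 (2.35 to 2.66) moved least.

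**Figure D5:**
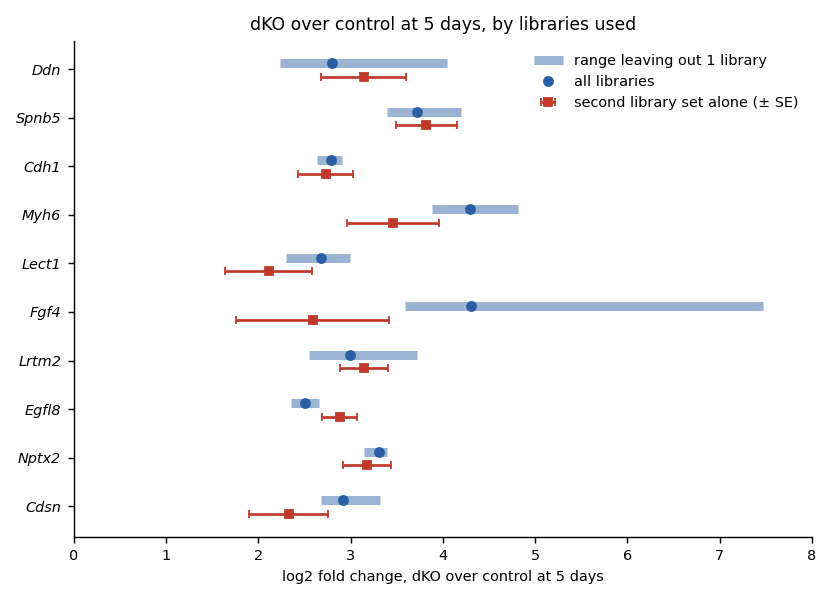
Log2 fold change of dKO over control nerve at 5 days (horizontal) for each gene: blue points use all libraries, blue bars span the fits with 1 library left out, and red squares with ± SE use the second library set alone. All values lie above 0, and Fgf4 has the widest bar.

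Within groups the genes did not all vary alike. Of the 45 pairs, 19 had a correlation below 0, among them all 9 pairs with Egfl8 (down to -0.73 with Fgf4), and the median was 0.12. Over the 12 libraries, deviations from the group means had a Pearson r of 0.95 for Lrtm2 and Ddn, 0.93 for Spnb5 and Lrtm2 and 0.87 for Nptx2 and Cdsn, while Spnb5 and Nptx2 had -0.80. These libraries share depth and tissue makeup, and the values describe them. Over all 12 libraries, the profile most like the mean of the 10 genes was that of Darc, a chemokine receptor of vessels (r = 0.983), among 13091 models, followed by Hspg2, the basement membrane proteoglycan perlecan (0.981), Nhsl2 (0.98), Cacna2d4 (0.98) and Pmp2, a lipid-binding myelin protein (0.98). Pmp2 stood at 752 and 734 CPM in intact control and dKO nerve and at 74.4 and 558 CPM at 5 days. For 9 of the single genes, the closest profile was Mag for Myh6 (0.991), Cldn14 for Fgf4 (0.99), Cadm3 for both Spnb5 and Cdh1 (0.996), Cmtm5 for Lect1 (0.996), Cacna2d4 for Lrtm2 (0.999), Sema3g for Egfl8 (0.984), Gpr137c for Nptx2 (0.979) and Mageh1 for Cdsn (0.973). These correlations follow mostly from the differences between the 4 groups and come with no test.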

How the data were processed

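The 12 libraries hold polyA RNA of sciatic nerve, with 3 libraries to a group, and were made with an Ion Total RNA-Seq Kit v2 per the labels. The deposited table of the authors holds raw counts of reads per gene model, named by symbol, and was the basis of every test. A table of normalized signal, counts that the authors divided by a size factor per library, was also deposited and served as an alternative. The submitters' processing notes name DESeq2, R 4.2.1 and mm10. For read alignment, counting, strand and annotation, the procedure is not given in the sources used here.

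Counts were fitted with edgeR 4.0.16 in R 4.3.3: filterByExpr over the 4 groups (minimum count 10), TMM scaling, and a robust quasi-likelihood fit in which each of the 4 groups has its own mean. P-values were adjusted by Benjamini-Hochberg over all 22384 tested models within each comparison, with a threshold of 0.05, and adjusted p-values come from edgeR where no tool stands beside them. Each log2 value is a fitted log2 fold change with its SE. Libraries were grouped by their titles. The comparisons were dKO against control in intact nerve, injury in each genotype, dKO against control at 5 days, and the difference of both injury changes. P-values of the 10 genes are given for intact nerve alone. The other comparisons share libraries with their choice, so for these the calls of the fit over all models describe the genes and support nothing. Positions came from GENCODE M21 (GRCm38) by symbol.

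The genes, the 13 gene lists and the 17 cell marker lists were chosen with earlier results of these data known. Named are all 10 genes, of each list the 2 genes with the smallest p for injury in control nerve, overlapping or adjoining genes, and genes with the most similar profile; marker list genes are mostly given as sums of CPM. Further genes were named after their values were seen, where 5 or fewer of a list were called. Library totals ran from 15430999 to 35845371 counts. The fit was tested on simulated data.

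Alternatives were DESeq2 1.42.0, limma-voom (limma 3.58.1), DESeq2 and upper-quartile scaling, no filter and a filter of 1 CPM in 3 libraries, fits of the compared groups alone, sex as a covariate (1 library at 5 days had Xist reads of a female), log2 of the normalized signal plus 1, 0.5 or 5, the replicate numbers as a block, a term for the library set, the second set alone, and leaving out each library. Promoters came from RefSeq. Results for 2 further genes that the naming rule covers are not reported here.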

Additional observations from a re-analysis of the deposited data

Results flagged for a closer look

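Outside the 10, 87 genes named in the text were tested directly for a difference of injury changes between genotypes. The test called 26 of 87 (edgeR, adjusted p under 0.05), with 20 toward dKO and 6 toward control. Over all models 2.9% were called. Many of the 87 were named for calls at 5 days, a place beside the 10 or a similar profile. Both shares can therefore not be set against each other as a test. The difference, dKO minus control, was 2.94 for Pmp2, 2.86 for Mag, 2.81 for Prx, 2.23 for Cldn19 and 1.42 for Egr2 among the genes of myelin and its control. Of the genes that lie over or beside the 10, it was 2.43 for Cacna2d4, 1.98 for Cmtm5, 1.75 for Pla2g4b, 1.31 for Gm20460, 1.09 for Prrt1 and 0.57 for Agpat1. It was 1.64 for Fgf1, 1.55 for Col2a1 and 1.04 for Myh14. Further genes were named for a profile like that of the 10, a choice that ties them to this difference. They had 2.21 (Gpr137c), 1.89 (Cadm3), 1.37 (Sema3g), 1.32 (Darc), 0.92 (Hspg2) and 0.71 (Nhsl2). The same limit holds for Pmp2 and Mag, which were also named for their profile. It holds as well for Cacna2d4 and Cmtm5, which lie near the 10 and were closest in profile to Lrtm2 and Lect1.

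The 6 below 0 were Tead4 (-1.30), Cdh2 (-1.23), Cdh19 (-1.15), Ngfr (-1.15), Clcf1 (-1.03) and Add1 (-0.59). With a term for the library set all 6 missed the threshold, at -1.17, -0.91, -0.89, -0.83, -0.87 and -0.49, as did Cacna2d4 (2.39), Cmtm5 (1.99), Fgf1 (1.62), Egr2 (1.72), Darc (1.08) and Agpat1 (0.72). The calls of Agpat1, Cdh2 and Cdh19 were also lost without any of 10 single libraries, and that of Add1 without any of 8. Egr2 missed the threshold without dKO library 3 at 5 days (1.35) or dKO library 4 of intact nerve (1.36), and Ngfr without dKO library 3 (-1.13) or 4 (-1.08) at 5 days.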

How the results depend on the processing

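Described for comparisons that share libraries with their choice, and so no support for it, the 10 genes kept their direction and their side of the threshold in 250 of 250 alternatives for injury in control nerve, 247 of 250 for injury in dKO nerve, 256 of 259 at 5 days and 216 of 240 for the difference of injury changes; no value reversed in these 4. The difference of injury changes was called for 5 of the 10 with a term for the library set. In intact nerve 15 of 250 values near 0 reversed: Fgf4 (0.00) was -0.01 with DESeq2, with its scaling and with the replicate block, -0.02 with upper-quartile scaling, -0.00 with the normalized values at each pseudocount, and -0.07 to 0.13 without 1 library, with 4 below 0; Nptx2 was 0.06 with the replicate block and -0.17 to 0.09 without 1 library; Myh6 was -0.38 to 0.03 without 1 library, the last without control library 2. Libraries with the same number did not deviate together (r = -0.086 and -0.012 in control, 0.088, 0.077 and -0.018 in dKO), so the numbers were not taken as pairs. Intact and injured libraries may still come from the same mice, and the fit took all libraries as independent. The replicate block moved no count of called genes among the 10 by over 1.5 times. Its terms were shared by both genotypes, so it does not model pairs within a mouse. The 5-day value of Fgf3, -0.03, was 0.00 with the filter of 1 CPM, 0.09 with upper-quartile scaling, 0.45 with the library set as a term or alone, and -0.30 to 0.45 without 1 library. Over all models the calls ranged from 515 to 3505 at 5 days (2707 in the fit described), 0 to 9 in intact nerve (1), 4299 to 11431 for injury in dKO nerve (9997) and 172 to 1075 for the difference (650), and leaving out 1 library from 1577 to 4225, 0 to 3, 8114 to 10995 and 352 to 1276. The causes were not tested. Fgf4, Ddn, Lect1 and Myh6 rested on 3 to 24 reads in all of injured control nerve.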

Other observations

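Genes that lie near the 10 were listed within 15 kb of each. Of 21 such neighbours that passed the filter, 12 were lower and 2 higher after injury in control nerve. At 5 days 8 were called higher in dKO nerve, where 3.12% of all models were. These were 4 of the 5 that overlap a gene of the 10 and 4 of the 16 that do not. The neighbours were taken by their place beside genes chosen in this comparison, and some share exons with them. Nothing is therefore read from the count of 8. Of the 8, Cacna2d4, Pla2g4b, Agpat1 and Gm20460 overlap a gene of the 10, as given above. Cacna2d4 shares no exonic base with Lrtm2, though their counts were nearly the same in intact nerve. The 4 without overlap were Cmtm5, a membrane protein gene 2646 bases from Myh6 (at 5 days 2.61 CPM in control against 9.48 CPM in dKO libraries, log2 difference 1.87, SE 0.23, edgeR adjusted p = 0.000181), Prrt1, 13561 bases from Egfl8 (1.07, SE 0.12, edgeR adjusted p = 7.63e-05), Ager (1.00, SE 0.29, edgeR adjusted p = 0.039) and Myh7. The call of Ager was lost without any of 7 single libraries and that of Myh7 without any of 3, as given above for dKO library 4. Next to Egfl8, Ppt2 lies 690 bases away on the same strand and did not pass (-0.25, edgeR adjusted p = 0.308), and Sugt1 beside Lect1 (-0.38, adjusted p = 0.0589), Prkag1 beside Ddn (-0.27, adjusted p = 0.0694) and Ehd4 beside Spnb5 (0.13, adjusted p = 0.499) did not pass either.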
